A study of Mus musculus with 9 samples.

Results

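The genes described here are 34 mouse genes of glycolysis and glucose transport: the enzymes from hexokinase to lactate dehydrogenase with their isoforms, the kinases that regulate pyruvate dehydrogenase, the bifunctional enzymes that set fructose 2,6-bisphosphate, and the glucose and lactate transporters. They were found through the array annotation: every probe set assigned to exactly 1 gene symbol among the 34 was taken. This gave 66 probe sets of 31 genes, out of 34958 probe sets with 1 gene symbol and 45101 on the array, and out of 18194 genes with a probe set. Gpi1, Eno1 and Pfkfb1 had no such probe set and are not analysed here. Of the 66 probe sets, 54 passed a filter on dim signals, and 28 of the 34 genes were tested. Pgam2, Pdk2 and Slc16a3 did not pass.

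Cells that the labels call neural crest cells were captured by laser microdissection from mice at 3 stages, and the RNA of each capture was hybridized to 1 Affymetrix array. The groups were mouse embryos of embryonic day 8.5 (E8.5) at closure of the neural tube, dorsal root ganglia of embryonic day 13.5 (E13.5), and the adrenal medulla of adults at postnatal day 90 (P90), with 3 arrays each. The labels give no strain, genotype or treatment, and name the arrays biological replicates but do not say how many animals went into a capture, so the p-values measure only the spread between these arrays. Each stage was taken from a different tissue, and stage and tissue cannot be told apart.

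Glycolysis splits glucose into pyruvate. Glucose enters cells through the Slc2a transporters, hexokinase traps it by phosphorylation, and phosphofructokinase makes the committed step. Pyruvate is then either reduced to lactate by lactate dehydrogenase and exported by monocarboxylate transporters, or oxidised in mitochondria by pyruvate dehydrogenase, which the Pdk kinases switch off. Most steps are served by isoforms from separate genes with tissue preferences: Hk2, Eno3 and Pfkm are best known from muscle, Eno2 and Aldoc from neurons, Pfkl from liver, and Slc2a1 and Ldha from growing and hypoxic tissues.

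Signals were read on a log2(signal + 16) scale, which understates changes of dim genes. Array medians lay between 38.3 and 48.2 and array means between 175 and 328. Pearson correlations of log2 values over 39435 probe sets ran from 0.873 to 0.985 between arrays of the same stage and from 0.825 to 0.918 between stages. Of the 9 arrays, 3 stood apart. On E13.5 replicate 2 the 3' control probe set of Gapdh was 26.4 times as bright as the 5' one, against 2.34 to 7.31 times on the other 8 arrays, and among E13.5 arrays it was the lowest for 24 of the 27 tested members without an empty value (88.9%), against 61.7% of 12757 genes. The same ratio for Actb, another control transcript, was 128 on that array and at most 7.29 on the other E13.5 arrays. On E8.5 replicate 1 it was 28.3, against 4.15 and 5.25 on the other E8.5 arrays, while the Gapdh ratio there, 3.52, was close to theirs. On the P90 arrays the Actb ratio was 2.57, 17.0 and 11.4. Without E8.5 replicate 1, 8 members were called at E13.5 and 10 at P90, in the comparisons with E8.5 (12.4% and 17.4% of all genes). P90 replicate 1 had a summed signal of 7 chromaffin cell markers of 12771, against 26247 and 25234 on the other P90 arrays, and a summed signal of 7 endothelial markers of 4386, against 1149 and 1027. Most of the endothelial difference was Kdr, at 2728 against 123 and 180. Cdh5, Esam, Cldn5 and Robo4 were also highest on that P90 array, while Pecam1 and Tie1 were not. Chromaffin markers marked the P90 arrays, with 8 of 8 called higher than at E8.5 and 7 of 8 called higher than at E13.5. All 4 tested pan-neuronal markers were called higher than at E8.5 both at E13.5 and at P90. Between P90 and E13.5, 0 of these 4 were called, and 6 of the 10 listed were empty on all E13.5 arrays. The E8.5 arrays carried markers of neural tube progenitors, with a summed signal of 5184 to 6069 over 5 markers, as well as markers of neural crest, with 2191 to 3415 over 5 markers. The neural crest sum was higher on the E13.5 arrays, at 3509 to 6136, and was 1093 to 2327 on the P90 arrays. On the E13.5 arrays it was mostly Ednrb, with 3815, 1959 and 3747. Of 5 tested neural crest markers, limma called 0 higher and 1 lower at E13.5 against E8.5, Foxd3 (-1.54, adjusted p = 0.0404). At P90 against E8.5 it called 0 higher and 3 lower. Of 8 adrenal cortex markers, 4 were empty on all P90 arrays, so the share of cortex in those captures could not be read from the whole list. Of 4 tested cortex markers, 1 was called higher and 3 were not called in each comparison with E8.5. The called marker was Nr5a1, at P90 (2.88, limma adjusted p = 0.000283) and at E13.5 (adjusted p = 0.00186). Nr5a1 had values on only 2 P90 arrays. Cyp11a1, the only cortex marker with a value on every array, read 73.2, 26.2 and 16.3 at P90, against 26.3 to 28.7 at E8.5. Of 6 tested macrophage and neutrophil markers, 5 were higher at P90 than at E8.5, C1qb by 3.80 on the log2 scale (adjusted p = 0.000142), and 2 of 3 tested markers of Schwann and satellite glia were higher at E13.5 than at E8.5. The part of these cells in the changes of the members was not tested.

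In E13.5 ganglia, 11 of the 28 tested genes differed from E8.5 embryos (limma, Benjamini-Hochberg adjusted p under 0.05 over 13749 genes), 3 higher and 8 lower. That is 39.3% of the members, against 16.5% of all genes tested, of which 9.27% were higher and 7.22% lower. The median log2 change was -0.84 over the members and 0.02 over all genes. In P90 adrenal medulla, 12 of 28 members differed from E8.5 embryos, 2 higher and 10 lower, or 42.9% against 23.3% of all genes (10.9% higher, 12.5% lower), with a median log2 change of -1.06 over the members and 0.00 over all genes. Between P90 and E13.5 only 3 of 28 members differed, 2 higher and 1 lower, or 10.7% against 9.48% of all genes (3.54% higher, 5.93% lower), which is close to the background. With quantile normalization this last split was 2 higher and 2 lower, or 14.3% of members against 13.4% of all genes. Pdk4 is counted as higher at P90 in both comparisons, although it passed the filter on dim signals through its P90 arrays alone; without it, 1 of 27 members was higher in each. The comparisons with E8.5 share its 3 arrays. In all, 15 members, Pdk4 among them, were called in at least 1 comparison, and 13 tested members were called in none. A limma F test for any difference between stages called 14 of 28, again including Pdk4, against 26.3% of all genes.

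**Figure D1:**
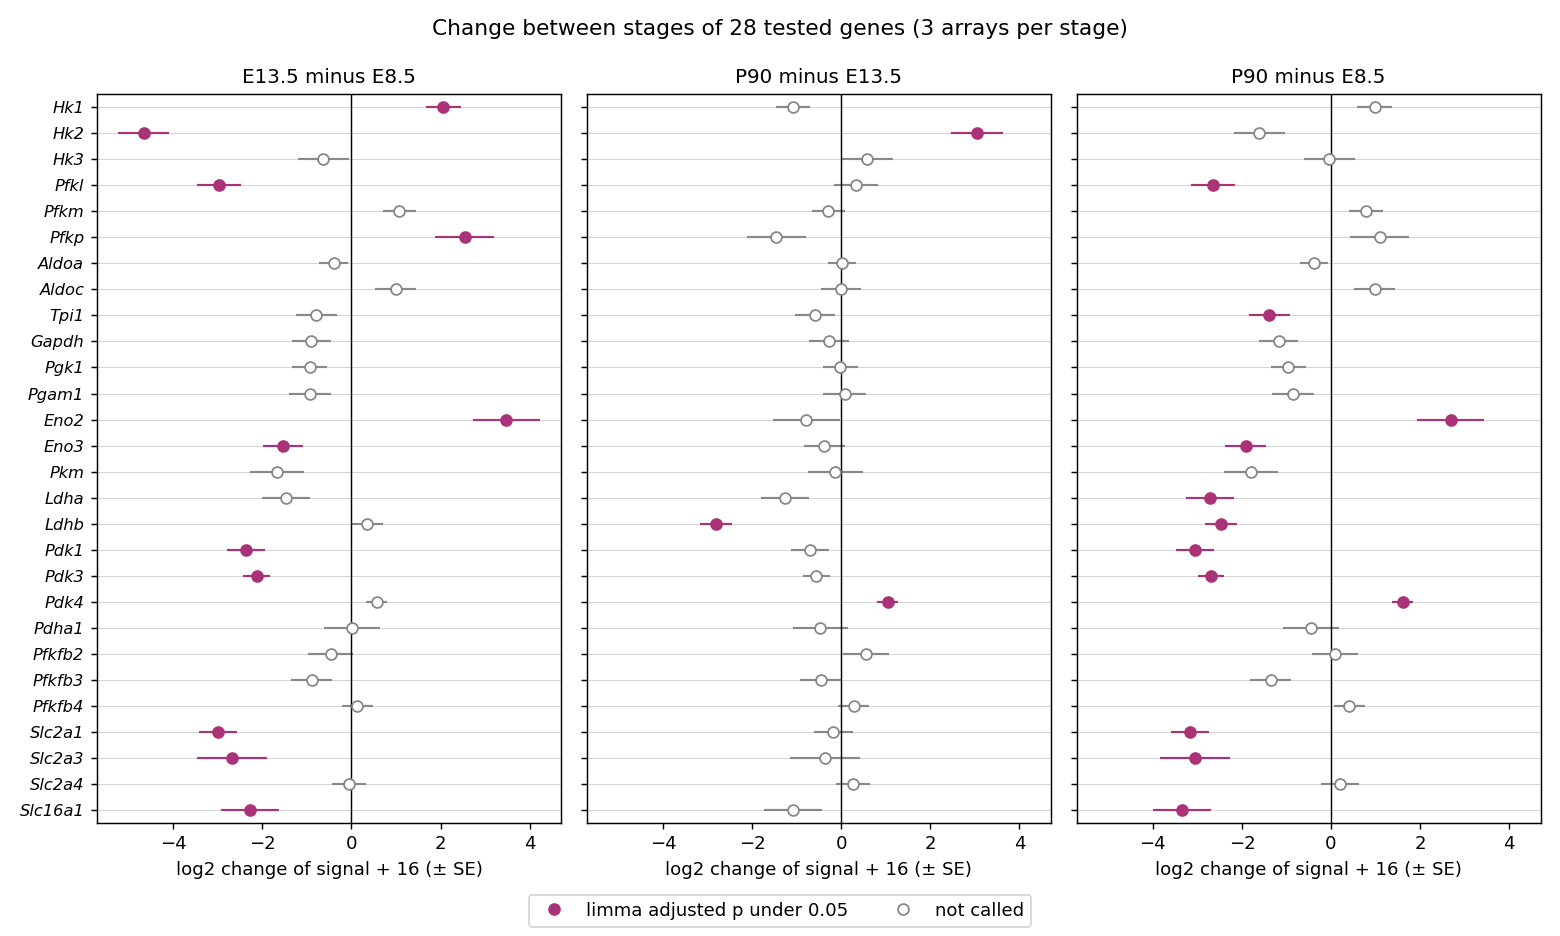
Log2 change of signal + 16 with its standard error for the 28 tested genes (rows) in E13.5 minus E8.5, P90 minus E13.5 and P90 minus E8.5 (panels). Filled points passed the limma test. Pdk4, filled in the middle and right panels, passed the filter on dim signals through its P90 arrays alone. Most filled points lie left of 0 in both comparisons with E8.5, from -4.66 (Hk2) to -1.54 (Eno3) at E13.5 and from -3.35 (Slc16a1) to -1.38 (Tpi1) at P90, while the middle panel has 3.

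Cycling cell markers moved in the same direction. All 7 tested markers of cycling cells were lower at E13.5 and at P90 than at E8.5, and their summed signal ran from 14646 to 19515 on E8.5 arrays, from 1545 to 4663 on E13.5 arrays and from 454 to 1279 on P90 arrays. Their part in the changes of the glycolytic genes was not tested. In captured tissue, fewer cells of a type and less RNA per cell cannot be told apart.

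Promoters are shown for 7 genes the results turn on: 5 with lower signal at a later stage (Slc2a1, Hk2, Slc16a1, Ldha, Pfkl) and 2 with higher signal (Hk1, Eno2), with and without a match among each. The windows run from 250 bases before to 50 bases after a transcription start in RefSeq (GRCm38.p6), 5' to 3' on the gene's strand. Capitals mark ACGTG, the core letters of hypoxia response elements, or its reverse CACGT, and where the 2 overlap they form CACGTG, the E-box bound by Myc and related factors.
Slc2a1 promoter, chr4:119108495-119108794, plus strand: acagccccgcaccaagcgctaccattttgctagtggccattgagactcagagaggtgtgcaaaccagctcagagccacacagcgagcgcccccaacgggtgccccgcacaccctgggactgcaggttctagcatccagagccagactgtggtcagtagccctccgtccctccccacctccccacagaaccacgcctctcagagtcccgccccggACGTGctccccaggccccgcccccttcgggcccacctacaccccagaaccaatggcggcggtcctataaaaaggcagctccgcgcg
Hk2 promoter, chr6:82774405-82774704, minus strand: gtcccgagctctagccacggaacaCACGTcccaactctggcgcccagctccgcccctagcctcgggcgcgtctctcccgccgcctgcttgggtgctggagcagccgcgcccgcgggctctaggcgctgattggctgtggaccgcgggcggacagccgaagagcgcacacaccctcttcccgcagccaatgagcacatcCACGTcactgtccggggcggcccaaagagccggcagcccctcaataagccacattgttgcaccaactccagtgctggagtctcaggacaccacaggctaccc
Slc16a1 promoter, chr3:104638414-104638713, plus strand: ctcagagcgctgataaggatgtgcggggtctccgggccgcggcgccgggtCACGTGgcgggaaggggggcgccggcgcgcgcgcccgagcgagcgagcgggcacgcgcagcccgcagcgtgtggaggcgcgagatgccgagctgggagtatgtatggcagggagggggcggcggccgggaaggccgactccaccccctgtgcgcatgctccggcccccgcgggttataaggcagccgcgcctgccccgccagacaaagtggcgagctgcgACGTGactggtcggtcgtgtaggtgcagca
Ldha promoter, chr7:46845554-46845853, plus strand: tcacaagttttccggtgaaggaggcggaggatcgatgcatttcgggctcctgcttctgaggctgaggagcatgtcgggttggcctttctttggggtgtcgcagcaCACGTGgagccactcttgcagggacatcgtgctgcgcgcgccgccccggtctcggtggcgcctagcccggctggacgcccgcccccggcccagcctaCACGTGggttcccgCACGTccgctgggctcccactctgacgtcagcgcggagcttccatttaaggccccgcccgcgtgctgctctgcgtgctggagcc
Pfkl promoter, chr10:78009758-78010057, minus strand: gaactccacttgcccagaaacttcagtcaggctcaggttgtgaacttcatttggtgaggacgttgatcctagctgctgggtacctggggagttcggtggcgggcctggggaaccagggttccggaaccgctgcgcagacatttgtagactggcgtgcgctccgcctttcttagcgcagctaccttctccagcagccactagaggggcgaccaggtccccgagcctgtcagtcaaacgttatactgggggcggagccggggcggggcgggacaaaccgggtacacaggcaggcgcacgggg
Hk1 promoter, chr10:62340372-62340671, minus strand: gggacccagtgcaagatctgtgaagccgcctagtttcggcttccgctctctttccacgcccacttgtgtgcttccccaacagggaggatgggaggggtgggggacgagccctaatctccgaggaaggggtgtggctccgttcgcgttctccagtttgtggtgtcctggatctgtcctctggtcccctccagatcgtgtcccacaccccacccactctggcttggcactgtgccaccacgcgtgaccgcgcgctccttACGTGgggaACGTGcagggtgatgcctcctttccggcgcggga
Eno2 promoter, chr6:124769624-124769923, minus strand: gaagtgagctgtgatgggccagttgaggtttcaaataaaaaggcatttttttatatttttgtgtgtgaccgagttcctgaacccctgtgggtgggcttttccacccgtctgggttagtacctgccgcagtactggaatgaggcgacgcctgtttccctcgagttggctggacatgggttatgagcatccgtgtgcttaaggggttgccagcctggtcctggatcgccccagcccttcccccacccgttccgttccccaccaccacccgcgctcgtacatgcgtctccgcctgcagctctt

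The Ldha window held 5 matches, of which 4 form 2 copies of CACGTG, and the other Ldha window, not shown, held none. The Slc16a1 window held 3, Hk2 held 2 and Slc2a1 held 1, while Pfkl held none. Among the genes with higher signal, the Hk1 window shown held 2, its other window none, and Eno2 held none. The called-lower genes Pdk1, Eno3, Ldhb and Tpi1 also had windows without a match. Over the members, 18 of the 32 genes with a window had a match, against 21.8% of all 27025 genes with a window. RefSeq windows were at hand for 7 of the 8 genes called lower at E13.5 than at E8.5, and 4 of these had a match, as did 1 of the 3 called higher. At P90 against E8.5, 9 of the 10 genes called lower had a window, and 4 of these had a match. Of the 2 called higher there, Pdk4 among them, 0 had a match. A match describes these letters only and is not a site shown to be used.

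Slc2a1, the main basal glucose transporter of embryonic tissue and of the blood-brain barrier, was far lower at both later stages. Its brightest probe set read 384, 868 and 1080 on the E13.5 arrays, against 5987, 5537 and 5812 on the E8.5 arrays. On the P90 arrays it read 451, 910 and 604. All later arrays lay below all E8.5 arrays. Its log2 change was -2.99 ± 0.43 (SE) at E13.5 (7.94-fold lower, limma adjusted p = 0.000792) and -3.17 ± 0.43 at P90 (8.98-fold lower, adjusted p = 0.000355), both against E8.5. A second probe set gave log2 changes of -4.40 at E13.5 and -3.54 at P90, both called. The third was empty on all E8.5 arrays and could not be tested. Slc2a1 lies on chromosome 4 (119108745 to 119137330, GRCm38.p6). Embryonic red cells and endothelium also carry this transporter. The summed signal of 5 red cell markers ran from 562 to 3649 on E8.5 arrays, from 285 to 791 on E13.5 arrays and from 69.4 to 96.2 on P90 arrays. That of 7 endothelial markers ran from 394 to 1159, from 1225 to 2214 and from 1027 to 4386, in the same stage order. On E8.5 arrays the red cell sum was mostly Hbb-bh1, with 479, 1736 and 3489, against at most 14.9 at P90. Of 5 tested red cell markers, limma called 2 higher and 1 lower at E13.5, and 1 higher and 1 lower at P90, against E8.5. Alas2, left out of the sum for an empty value, rose at both stages (2.27 and 2.63, limma adjusted p = 0.00939 and 0.00167). The part of red cells and endothelium in the Slc2a1 signal was not tested.

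Slc2a3, a high-affinity glucose transporter of neurons and of the early embryo (chromosome 6, 122727809 to 122802363), was also lower after E8.5, with more spread. Its brightest probe set read 1541, 271 and 802 on the E13.5 arrays, against 2889, 5706 and 5788 on the E8.5 arrays. Its P90 readings were 134, 1146 and 967. No later array reached an E8.5 array, and the lowest reading of all was on P90 replicate 1. Limma gave a log2 change of -2.68 ± 0.79 at E13.5 (adjusted p = 0.0378) and -3.05 ± 0.79 at P90 (adjusted p = 0.0156). The first of these was no longer called without E13.5 replicate 2 (-2.02, adjusted p = 0.104), E13.5 replicate 3 or any single E8.5 array. The second was still called without P90 replicate 1 (-2.10, adjusted p = 0.0254) but not without E8.5 replicate 2 or 3. Both probe sets that fell have suffixes (_s_at, _x_at) that mark probes shared with other transcripts, and the third tested, a dim one (13.5 to 43.5 on all arrays) gave 0.12 at E13.5 and 0.29 at P90, neither called.

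Slc2a4, the insulin-responsive transporter of muscle and fat, stayed dim, between 34 and 97.5 on the 7 arrays with a value, and differed in no comparison. Adipocyte markers were near the floor of the scale, with a summed signal of 2 markers between 4.14 and 59.7 on all arrays. Slc16a1, the monocarboxylate transporter that carries lactate across the cell membrane (chromosome 3, 104638664 to 104658462), read 323, 60.2 and 168 on the E13.5 arrays, against 271, 1520 and 1199 on the E8.5 arrays. At P90 the readings were 59.1, 49.8 and 86.7. The P90 arrays lay below every E8.5 array, while E13.5 and E8.5 overlapped through E8.5 replicate 1. Against E8.5 the log2 change was -3.35 ± 0.65 at P90 (adjusted p = 0.00345) and -2.27 ± 0.65 at E13.5 (adjusted p = 0.0345). The E13.5 call did not hold without E13.5 replicate 2 (-1.70, adjusted p = 0.0985), E13.5 replicate 3, E8.5 replicate 2 or E8.5 replicate 3. Without E8.5 replicate 1 the changes were -4.10 at P90 (adjusted p = 0.00113) and -3.02 at E13.5 (adjusted p = 0.0078). The partner transporter Slc16a3, typical of strongly glycolytic cells, read 35.8 and 54.3 on 2 E8.5 arrays and at most 8.51 on the later arrays, and was too dim to test.

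**Figure D2:**
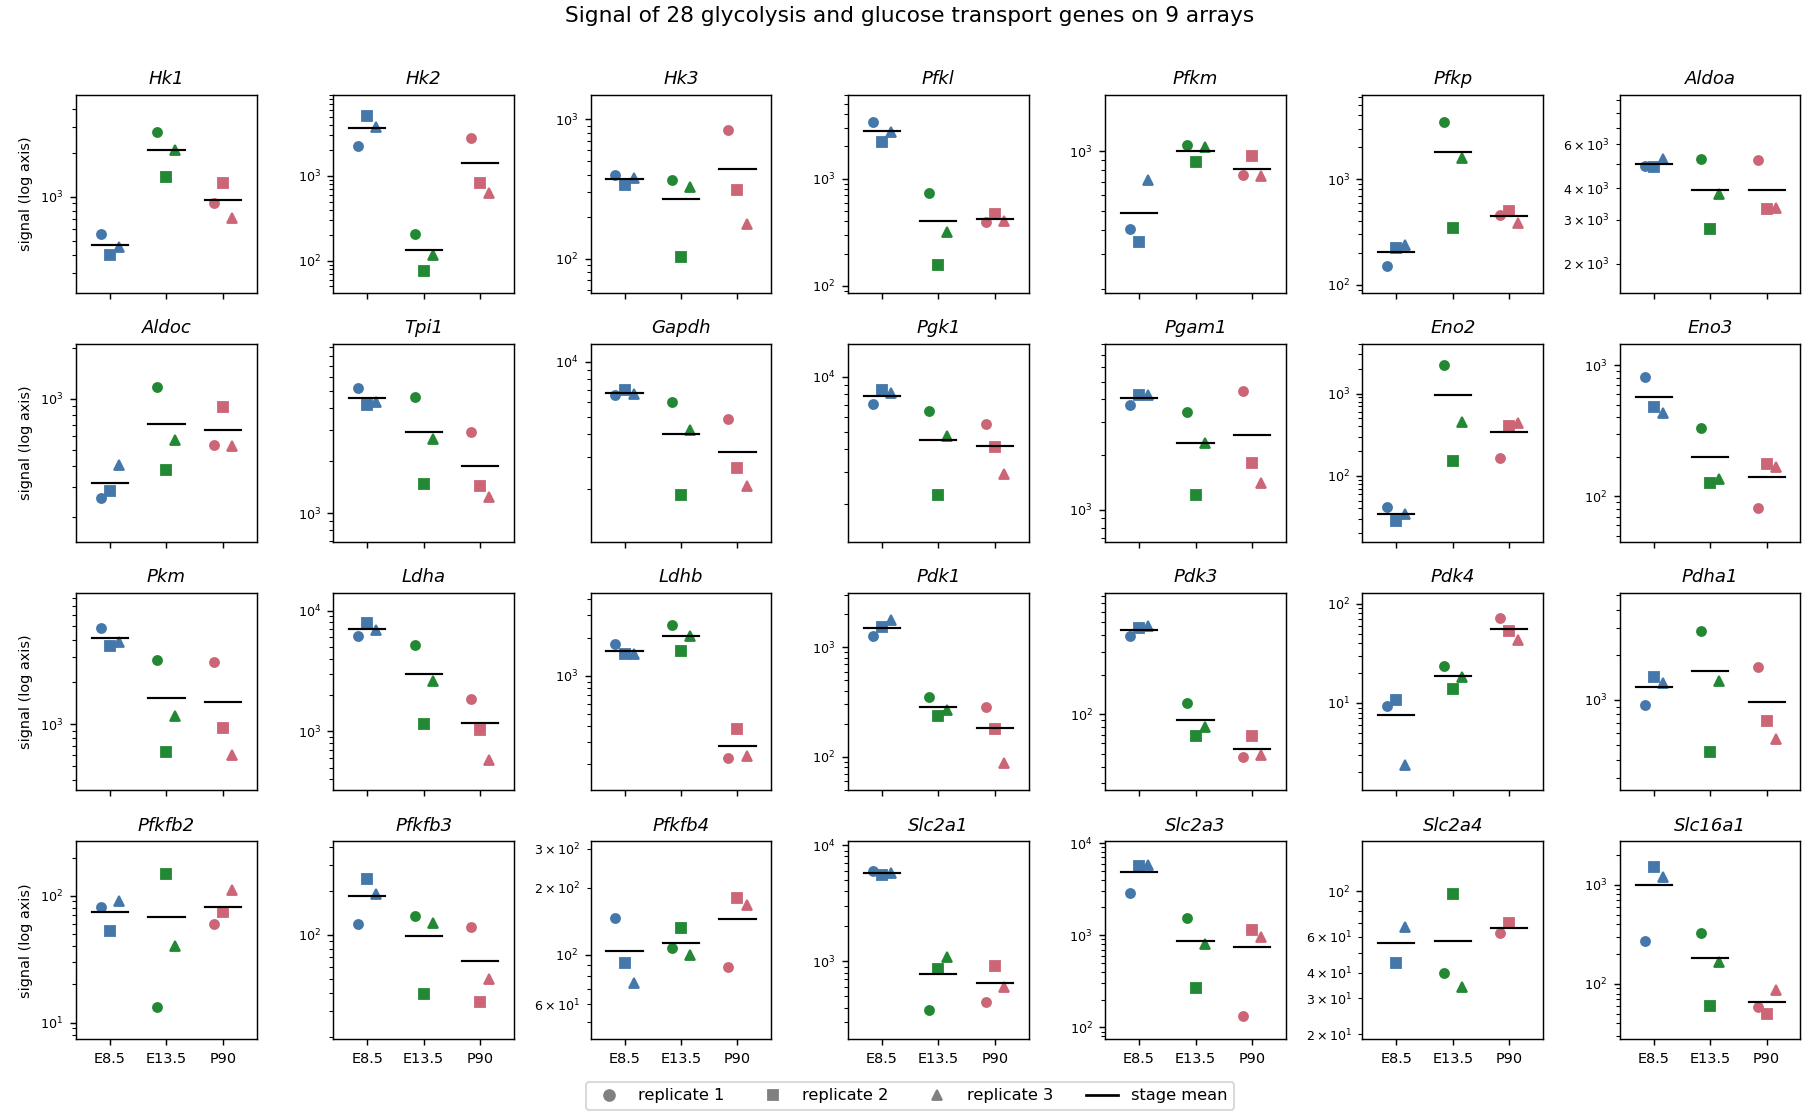
Signal on each array (log axis, 1 panel per gene with its own range) for the 28 tested genes at E8.5, E13.5 and P90, with the arithmetic mean of a stage as a line. Slc2a1 sits near 5779 at E8.5 and at 777 and 655 later. Hk2 dips to 133 at E13.5, and Ldhb drops at P90 only, to 279.

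The hexokinases moved in opposite directions. Hk2, the inducible form known from muscle, embryos and tumours (chromosome 6, 82725025 to 82774454), read 207, 75.8 and 116 on the E13.5 arrays, against 2281, 5024 and 3755 on the E8.5 arrays. It read 2787, 836 and 626 on the P90 arrays. E13.5 lay below every other array, and P90 overlapped E8.5 through P90 replicate 1. Hk2 fell by 4.66 ± 0.58 on the log2 scale at E13.5 against E8.5 (25.3-fold, adjusted p = 0.000319), and was higher by 3.05 ± 0.58 at P90 than at E13.5 (adjusted p = 0.00584). Its P90 to E8.5 difference of -1.61 missed the threshold (adjusted p = 0.0651). Without P90 replicate 1 the P90 values were 2.41 against E13.5 (adjusted p = 0.00804) and -2.25 against E8.5 (adjusted p = 0.00568).

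Hk1, the constitutive form that dominates in brain and is bound to mitochondria (chromosome 10, 62268855 to 62379920), read 2762, 1366 and 2097 on the E13.5 arrays, against 558, 397 and 452 on the E8.5 arrays. At P90 the readings were 908, 1249 and 710. Every E13.5 array was above every E8.5 and every P90 array. Its log2 change was 2.07 ± 0.39 at E13.5 against E8.5 (adjusted p = 0.00377). The changes at P90, -1.09 against E13.5 and 0.98 against E8.5, were not called (adjusted p = 0.119 and 0.0931), and both passed without E13.5 replicate 2 (adjusted p = 0.0371 and 0.0489). Hk3, a form typical of white blood cells, had mean signals of 371 ± 32 (E8.5), 266 ± 143 (E13.5) and 440 ± 347 (P90; SD, 3 arrays each) and was called in no comparison.

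The phosphofructokinase subunits also parted. Pfkl, the liver-type subunit (chromosome 10, 77986947 to 78009807), read 736, 155 and 322 on the E13.5 arrays, against 3373, 2202 and 2740 on the E8.5 arrays. Its P90 readings were 395, 472 and 407. Neither later stage overlapped E8.5. Pfkl fell by 2.64 ± 0.49 at P90 against E8.5 on the log2 scale (adjusted p = 0.00266), and its E13.5 to E8.5 change was a 7.81-fold fall (adjusted p = 0.00182). A second probe set fell too, and the third gave -1.34 at E13.5 and -1.41 at P90 without a call.

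Pfkp, the platelet-type subunit that is also common in brain (chromosome 13, 6579874 to 6649060), went the other way at E13.5. It read 3484, 343 and 1599 on the E13.5 arrays, against 152, 221 and 239 on the E8.5 arrays. At P90 the readings were 461, 501 and 382. The E13.5 arrays were all above the E8.5 arrays but spread widely among themselves, with replicate 2 the lowest. Limma gave a log2 change of 2.55 ± 0.66 (adjusted p = 0.0217) with all arrays and 3.46 (adjusted p = 0.00039) without E13.5 replicate 2. It missed the threshold without E13.5 replicate 1 or 3, or without any single E8.5 array. Of its 3 probe sets, 2 were called higher, and the third, a dim one, gave -0.28. Pfkm, the muscle-type subunit, read 1072, 879 and 1054 at E13.5, against 404, 345 and 717 at E8.5, and 755, 948 and 747 at P90. All its later arrays were above all E8.5 arrays, but the log2 changes of 1.08 at E13.5 and 0.78 at P90 were not called (adjusted p = 0.0735 and 0.156).

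Of the enzymes from aldolase to pyruvate kinase, only the enolases and Tpi1 passed the test in any comparison. Aldoa, the ubiquitous aldolase, had mean signals of 5018 ± 208 (E8.5), 3931 ± 1236 (E13.5) and 3943 ± 1090 (P90; SD, 3 arrays each), and none of its 5 probe sets was called. Aldoc, the neuronal aldolase, had means of 317 ± 80 (E8.5), 706 ± 416 (E13.5) and 650 ± 215 (P90), with log2 changes of 0.99 and 0.98 against E8.5 that were not called. Both aldolases overlapped between E13.5 and E8.5.

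Tpi1, which interconverts the triose phosphates (chromosome 6, 124810586 to 124814158), was called at P90 against E8.5. It read 2934, 1441 and 1242 on the P90 arrays, against 5196, 4159 and 4367 on the E8.5 arrays. On the E13.5 arrays it read 4639, 1476 and 2667. The P90 arrays lay below all E8.5 arrays, with a log2 change of -1.38 ± 0.45 (adjusted p = 0.0462). Leaving out any single E8.5 array, E13.5 replicate 3, P90 replicate 2 or P90 replicate 3 ended the call (adjusted p between 0.0716 and 0.152). With every probe set tested by limma, this one was not called either (adjusted p = 0.0544). Of its 3 probe sets, 1 was then called lower (-1.93, adjusted p = 0.0298), and the remaining one gave -2.19 without a call (adjusted p = 0.0584).

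Gapdh, the redox step of glycolysis, Pgk1, the first ATP-making step, and Pgam1, a mutase, gave similar, uncalled changes. At E13.5 against E8.5 their log2 changes were -0.90, -0.93 and -0.93 (adjusted p = 0.21, 0.14 and 0.236), and at P90 against E8.5 they were -1.17, -0.95 and -0.85 (adjusted p = 0.0776, 0.104 and 0.229). Without E13.5 replicate 2, Gapdh and Pgk1 passed at P90 against E8.5 (adjusted p = 0.0196 and 0.025). Gapdh is on this array only through control probe sets, and the size of its change depended on where the probes lie. At E13.5 against E8.5 it was -0.90 for the 3', -1.52 for the middle and -2.03 for the 5' probe set, none called. Pkm, pyruvate kinase of muscle and most other tissues, read 2776, 934 and 607 on the P90 arrays, against 4847, 3614 and 3875 on the E8.5 arrays, and missed the threshold (-1.79, adjusted p = 0.0536). It was called in 10 of 25 alternatives, with -2.41 (adjusted p = 0.0069) without P90 replicate 1 and an adjusted p of 0.0278 without E13.5 replicate 2. Its probe set does not separate the spliced M1 and M2 forms. Pgam2, the muscle mutase, was at or near the floor of 1 on every array, at most 6.86.

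**Figure D3:**
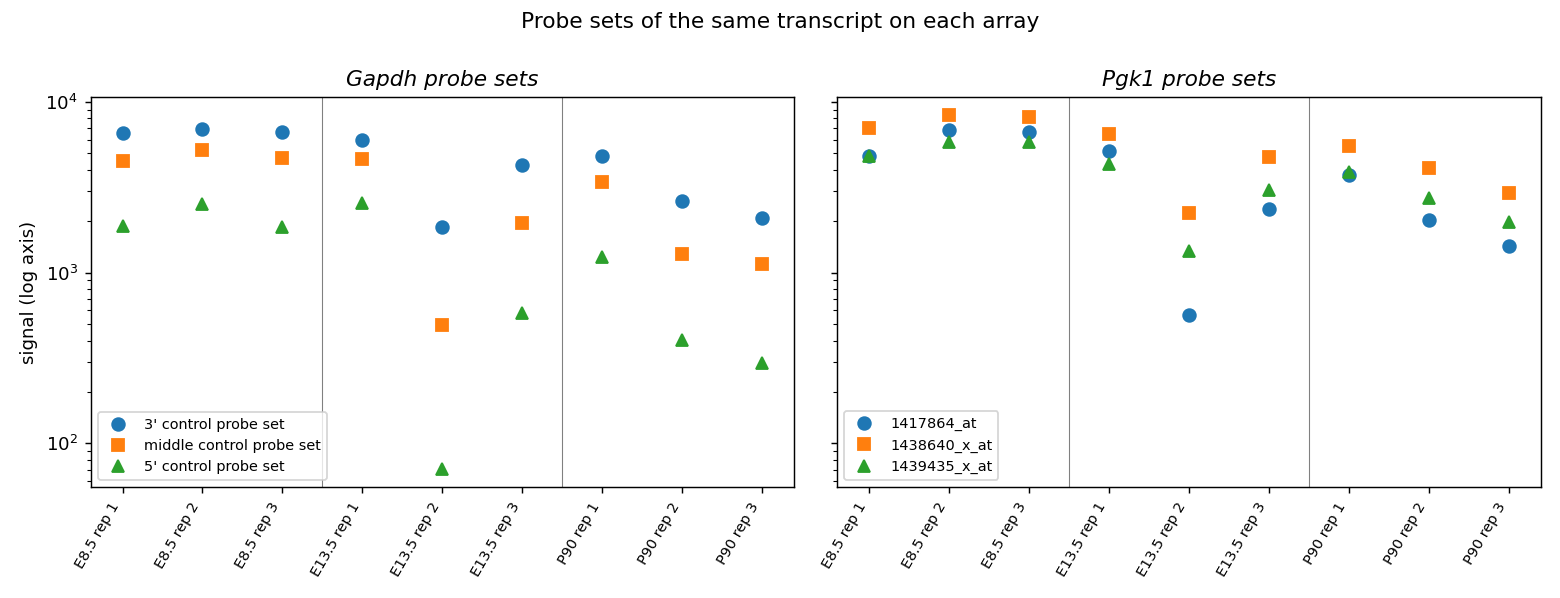
Signal (log axis) of the 3 control probe sets of Gapdh and the 3 probe sets of Pgk1 on each of the 9 arrays. The 5' Gapdh probe set reads 70.4 on E13.5 replicate 2, where the 3' one reads 1861, and 1 Pgk1 probe set drops to 561 there, while another reads 2244.

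The enolases changed in opposite directions. Eno2, the neuron-specific enolase (chromosome 6, 124760053 to 124769673), read 2253, 152 and 451 on the E13.5 arrays, against 41.8, 28.5 and 34 on the E8.5 arrays. Its P90 readings were 163, 408 and 438. Every later array was above every E8.5 array, and E13.5 replicate 1 stood far above the other arrays. Eno2 rose by 3.48 ± 0.75 at E13.5 on the log2 scale (11.1-fold, adjusted p = 0.00822) and by 2.69 ± 0.75 at P90 (adjusted p = 0.0229). The E13.5 change was 4.35 (adjusted p = 0.000943) without E13.5 replicate 2, and it was called in all 25 alternatives, with values between 2.47 and 4.55. The P90 call did not hold without any single E8.5 array or without P90 replicate 2 or 3 (adjusted p between 0.0618 and 0.0833). Neuronal markers rose alongside: all 4 tested pan-neuronal markers were called higher at both later stages than at E8.5, and for the 2 with no empty value the summed signal ran from 161 to 214 on E8.5 arrays, from 3663 to 8790 on E13.5 arrays and from 2554 to 3384 on P90 arrays. Of the 10 markers, 6 were empty on all E13.5 arrays. Their part in the Eno2 signal was not tested.

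Eno3, the muscle enolase (chromosome 11, 70653125 to 70662513), read 332, 126 and 135 on the E13.5 arrays, against 809, 477 and 434 on the E8.5 arrays. Its P90 readings were 81.2, 175 and 167. The later arrays were all below the E8.5 arrays. The log2 change was -1.92 ± 0.45 at P90 (adjusted p = 0.0100) and -1.54 ± 0.45 at E13.5 (adjusted p = 0.0381), both against E8.5. The call at E13.5 ended without E13.5 replicate 2 (-1.31, adjusted p = 0.092), E13.5 replicate 3, P90 replicate 2, P90 replicate 3 or any single E8.5 array. The summed signal of 12 striated muscle markers ran from 506 to 653 on E8.5 arrays, from 685 to 2089 on E13.5 arrays and from 596 to 837 on P90 arrays.

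Both lactate dehydrogenase subunits were lower at P90 than at E8.5, and neither was called at E13.5 against E8.5. Ldha, the subunit that favours lactate production (chromosome 7, 46842274 to 46855627), read 1866, 1033 and 582 on the P90 arrays, against 6159, 7828 and 6946 on the E8.5 arrays. On the E13.5 arrays it read 5226, 1155 and 2612. P90 and E13.5 overlapped, and both lay below every E8.5 array. The log2 change was -2.72 ± 0.54 at P90 against E8.5 (6.59-fold, adjusted p = 0.00384). At E13.5 it was -1.46 and not called (adjusted p = 0.0927). Against E13.5, the P90 difference was -1.26 (adjusted p = 0.203) with all arrays and -1.81 (adjusted p = 0.0292) without E13.5 replicate 2.

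Ldhb, the subunit typical of oxidative tissues such as heart (chromosome 6, 142490249 to 142507957), was lower at P90 than at both embryonic stages. It read 224, 379 and 234 on the P90 arrays, against 2522, 1564 and 2059 on the E13.5 arrays and 1782, 1484 and 1479 on the E8.5 arrays. The P90 arrays lay below all 6 others, and the embryonic stages overlapped. The log2 change was -2.82 ± 0.36 against E13.5 (7.05-fold, adjusted p = 0.000596) and -2.47 ± 0.36 against E8.5 (adjusted p = 0.000575). Of its 4 probe sets, 3 were called lower in each of these comparisons. Ldhb was the 1 member called lower between E13.5 and P90, where the share called lower among all genes was 5.93%.

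Of the pyruvate dehydrogenase kinases, which phosphorylate and silence the dehydrogenase, Pdk1 and Pdk3 were both lower at the later stages than at E8.5. Pdk1, the hypoxia-responsive kinase (chromosome 2, 71873215 to 71903858), read 350, 235 and 265 on the E13.5 arrays, against 1256, 1523 and 1758 on the E8.5 arrays. On the P90 arrays it read 282, 178 and 88.3. Neither later stage overlapped E8.5, and 3 of 4 probe sets were called lower. Pdk1 had a log2 change of -2.36 ± 0.42 at E13.5 (adjusted p = 0.00282) and -3.05 ± 0.42 at P90 (adjusted p = 0.000398). Pdk3 (chromosome X, 93764616 to 93832150) followed the same order, with 121, 68.8 and 79.7 on the E13.5 arrays, against 394, 455 and 468 on the E8.5 arrays, and 47.4, 67.9 and 49.3 on the P90 arrays. Limma gave -2.13 ± 0.30 at E13.5 (adjusted p = 0.000693) and -2.69 ± 0.30 at P90 (adjusted p = 8.2e-05).

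Pdk4, the kinase induced by fasting and fatty acids (chromosome 6, 5483351 to 5496278), was highest at P90. It read 71.8, 52.6 and 42.7 on the P90 arrays, against 23.4, 13.7 and 18.4 on the E13.5 arrays and 9.33, 10.8 and 2.37 on the E8.5 arrays. The 3 stages did not overlap. Pdk4 passed the filter on dim signals (a value above 26.1 on 3 or more arrays) through its 3 P90 arrays alone, and no other tested member passed through a single stage. Being tested at all therefore required a high P90 signal, so its P90 differences, 1.04 against E13.5 and 1.61 against E8.5 on the log2(signal + 16) scale, are given as a description, without a test. Pdk2 stayed between 1.24 and 20.2 and was not tested. Pdha1, the catalytic subunit that the kinases act on, had mean signals of 1211 ± 250 (E8.5), 1562 ± 1237 (E13.5) and 975 ± 591 (P90; SD, 3 arrays each), with no call. The Pfkfb enzymes, which raise or lower the phosphofructokinase activator fructose 2,6-bisphosphate, had no called member among the 3 tested. The nearest was Pfkfb3, the form with the strongest kinase bias, at -1.35 for P90 against E8.5 (adjusted p = 0.0557).

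Isoform switches were tested as the per-array log2 ratio between a pair of isoforms of a step. Of 18 pairs, 12 had both isoforms tested. Only the change of a ratio between stages can be read, since different probe sets share no scale. An exact permutation test of the F statistic over all assignments of arrays to stages (1680 with 9 arrays, smallest possible p = 0.00357) found 6 pairs with an unadjusted p under 0.05 and 4 after Benjamini-Hochberg adjustment over 12 pairs, both counts including Pdk4 to Pdk1. These pairs contain genes already described, so the ratios are not independent of the single gene results. The adjusted p of the other pairs also depend on the p of Pdk4 to Pdk1, and the adjustment was not rerun without that pair.

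The Hk2 to Hk1 log2 ratio was 2.0, 3.61 and 3.01 on the E8.5 arrays, -3.64, -3.91 and -4.00 on the E13.5 arrays, and 1.60, -0.57 and -0.18 on the P90 arrays. No 2 stages overlapped. The mean was lower by 6.73 at E13.5 than at E8.5, and higher by 4.14 at P90 than at E13.5 (exact permutation p = 0.00357, the smallest possible, adjusted p = 0.0143). The Pfkp to Pfkl ratio was -4.34, -3.22 and -3.43 at E8.5, 2.22, 1.07 and 2.26 at E13.5, and 0.21, 0.08 and -0.09 at P90. It was lowest at E8.5 and highest at E13.5 on every array, with the same exact p of 0.00357 and adjusted p of 0.0143.

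The Pfkm to Pfkl ratio had stage means of -2.51 ± 0.56 (E8.5), 1.53 ± 0.93 (E13.5) and 0.91 ± 0.07 (P90; SD, 3 arrays each). E8.5 lay apart from both later stages, which overlapped each other (exact permutation p = 0.0143, adjusted p = 0.0429). This adjusted p is close to the threshold and was not computed without Pdk4 to Pdk1, so it is not read as a call. It rose to between 0.06 and 0.075 without E13.5 replicate 2, E13.5 replicate 3 or P90 replicate 3. The Pdk4 to Pdk1 ratio was -5.65, -5.84 and -6.59 at E8.5, -3.21, -3.08 and -3.03 at E13.5, and -1.76, -1.50 and -0.83 at P90. It was higher at each later stage without overlap. Its p is not given, since Pdk4 was tested only because of its P90 arrays.

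Aldoc to Aldoa and Ldhb to Ldha passed only before adjustment (exact permutation p = 0.0393 and 0.0429, adjusted p = 0.0857 for both). The mean Ldhb to Ldha ratio was -2.13 on E8.5 arrays, -0.32 on E13.5 arrays and -1.88 on P90 arrays. Slc2a4 to Slc2a1 had values on 7 arrays and an exact permutation p of 0.0762 (adjusted p = 0.131). Pfkp to Pfkm, Pdk3 to Pdk1, Pfkfb2 to Pfkfb3, Pfkfb4 to Pfkfb3 and Slc2a3 to Slc2a1 had adjusted p between 0.252 and 0.968. Slc2a3 and Slc2a1 both fell after E8.5, and the mean of their ratio was -0.34, -0.03 and -0.22 at E8.5, E13.5 and P90, with a wide spread at the later stages.

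**Figure D4:**
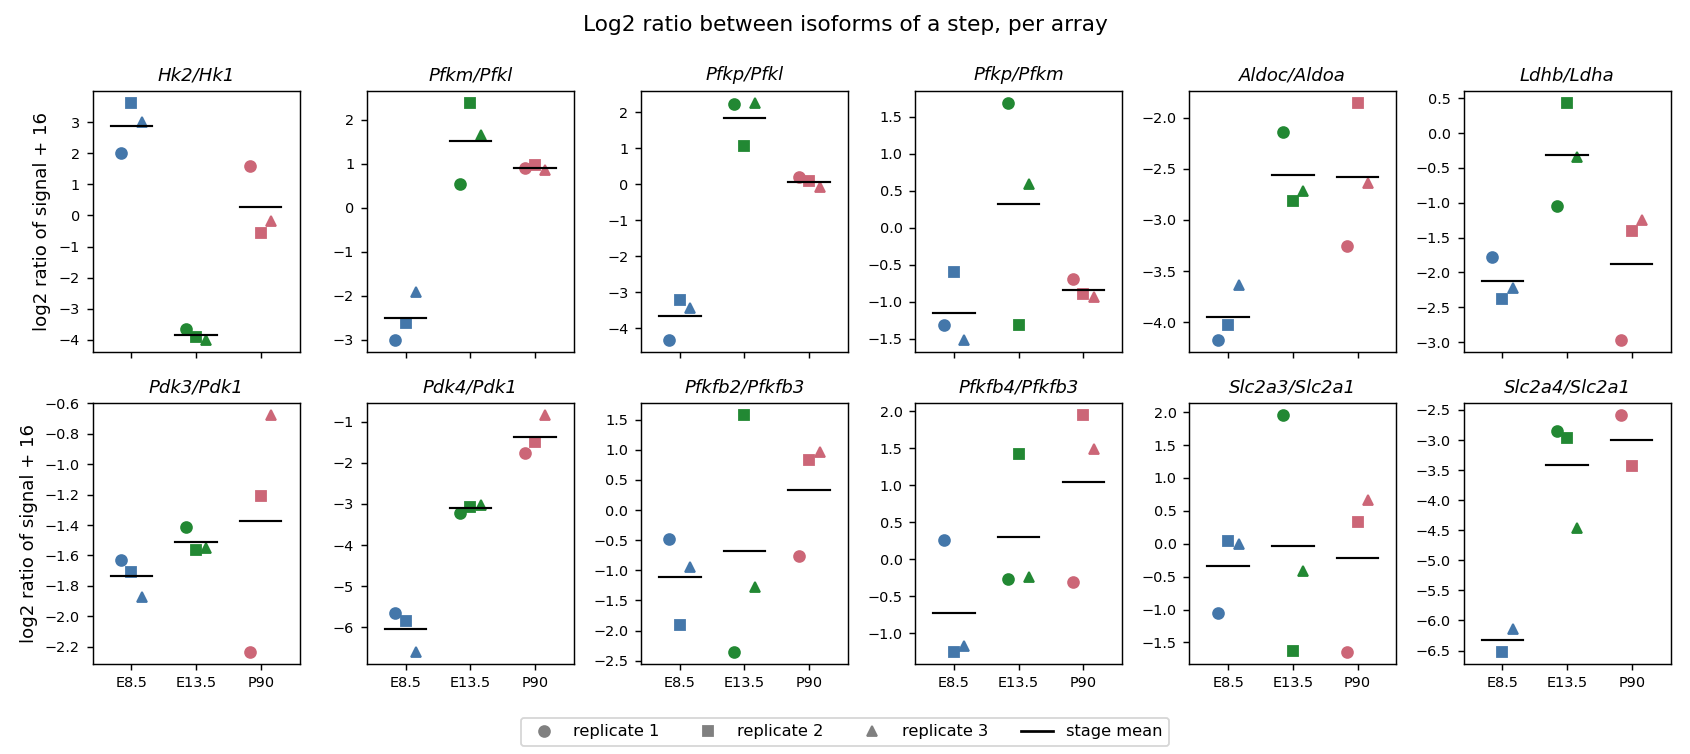
Log2 ratio of signal + 16 between 2 isoforms of a step on each array, for the 12 pairs tested, with the stage mean as a line. The Hk2/Hk1, Pfkp/Pfkl and Pdk4/Pdk1 panels show 3 separate stages, with means of 2.87, -3.85 and 0.28 for Hk2/Hk1. In Slc2a3/Slc2a1 the stages overlap throughout.

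Other genes of glucose metabolism were counted from lists, to be read against the 16.5% (E13.5) and 23.3% (P90) of all genes called in the comparisons with E8.5. Among 18 tested genes of other glycolytic and pyruvate enzymes, 1 was called higher and 1 lower at E13.5 against E8.5, and 3 higher and 3 lower at P90 against E8.5, which is 11.1% and 33.3%. Pdp1, the phosphatase that reactivates pyruvate dehydrogenase, rose by 2.99 ± 0.45 at E13.5 (adjusted p = 0.00105) and by 3.46 ± 0.45 at P90 (adjusted p = 0.000254), both against E8.5. Pcx, pyruvate carboxylase, rose by 2.70 ± 0.57 at P90 against E8.5 (adjusted p = 0.0053) and by 2.17 ± 0.57 against E13.5 (adjusted p = 0.0333). Dlat, a core subunit of pyruvate dehydrogenase, fell by 1.31 at P90 against E8.5 (adjusted p = 0.0439).

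Of 12 tested genes for other glucose and monocarboxylate transporters, 1 was called higher in each comparison with E8.5, or 8.33%. Slc2a6 was higher by 1.61 at E13.5 than at E8.5 (adjusted p = 0.00321), and at P90 it was lower than at E13.5 by a log2 change of -1.53 (adjusted p = 0.00671). Of 10 tested pentose phosphate genes, 1 was called lower at E13.5, and 1 was called higher and 1 lower at P90, against E8.5, shares below those of all genes. The ribose phosphate synthetases Prps2 at E13.5 (-2.28, adjusted p = 0.0279) and Prps1 at P90 (-2.37, adjusted p = 0.0321) fell, and H6pd, the hexose phosphate dehydrogenase of the endoplasmic reticulum, rose at P90 (2.45, adjusted p = 0.00385).

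Of 17 tested glycogen and gluconeogenesis genes, 1 was higher and 1 lower in each comparison with E8.5, or 11.8%. Phka1, a regulatory subunit of phosphorylase kinase, rose by 1.14 at E13.5 (adjusted p = 0.024) and by 2.02 at P90 (adjusted p = 0.000686). Gys1, glycogen synthase of muscle and most tissues, fell by 1.25 at E13.5 (adjusted p = 0.00749) and fell by 1.91 at P90 (adjusted p = 0.0004). Between P90 and E13.5, limma called 0 of the 17, with 4 at an unadjusted p under 0.05, 2 in each direction.

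Of 22 tested regulators of the pathway, 2 were higher and 1 lower at E13.5 than at E8.5, and 3 were higher and 4 lower at P90 than at E8.5 (13.6% and 31.8%). Epas1, the hypoxia-inducible factor subunit HIF-2α, rose by 3.72 ± 0.67 at E13.5 (adjusted p = 0.00277) and by 4.40 ± 0.67 at P90 (adjusted p = 0.000725). Egln3, an oxygen-sensing prolyl hydroxylase, fell by 1.10 at E13.5 (adjusted p = 0.0304) and fell by 1.93 at P90 (adjusted p = 0.00105). Txnip, an arrestin that lowers glucose uptake, rose by 3.33 ± 0.59 at P90 against E8.5 (adjusted p = 0.00195) and by 2.32 ± 0.59 against E13.5 (adjusted p = 0.0295). Mycn, a Myc family factor of neural progenitors, fell by 3.25 ± 0.86 at P90 against E8.5 (adjusted p = 0.0174).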

How the data were processed

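RNA of laser-captured cells was measured on 9 Affymetrix arrays, 3 per stage. Each deposited value is a linear probe set intensity, never below 1. The submitters' processing notes name MAS5, GCOS, RMA and GCRMA; which of them made the table, and its scaling, is not given in the sources used here. Of 405909 cells 8048 (1.98%) were empty, and of the 594 cells of member probe sets 11. Gene symbols came from the platform annotation: 34958 probe sets had 1 symbol, 932 several and 9211 none.

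From the deposited intensities, log2(signal + 16) was computed without scaling between arrays. Probe sets needed at least 2 values per stage and, on 3 or more arrays, a signal above 26.1, the 40th percentile over the whole table. The brightest probe set stood for each of 13749 genes. Gapdh was read through its 3' control probe set, the only gene represented by controls. All 9 arrays entered 1 limma fit (limma 3.58.1 in R 4.3.3; lmFit and trended eBayes, two-sided tests, 6 residual degrees of freedom), with Benjamini-Hochberg adjustment over all genes and calls under 0.05. Isoform ratios were tested by exact permutation (scipy 1.17.1, numpy 2.4.6, pandas 2.3.3). The fit was tested on simulated data. The number of arrays limits the precision of every value.

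All 34 members are named, with array values for those called and for isoforms of changed pairs. Of each neighbouring gene list, only genes among the 2 most changed calls per direction and comparison are named. The members, lists and rules were chosen with earlier results of these data known. Replicate numbers were not treated as pairs. Deviations from stage means on same-numbered arrays had correlations of -0.0047, -0.37 and 0.13 for E13.5 and E8.5. The values were 0.39, 0.20 and -0.18 for P90 and E13.5, and -0.058, -0.072 and 0.086 for P90 and E8.5. Deviations from a mean of 3 arrays are not independent, so these values cannot decide whether the numbers pair the samples. Alternatives covered scaling, pseudocount, filter, probe set choice, variance model, a replicate block, covariates for RNA integrity and leaving out each array.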

Additional observations from a re-analysis of the deposited data

How the results depend on the processing

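Of 26 member calls, 18 held in every one of the 25 alternatives that could be run, and 8 were lost in at least 1. Both P90 differences of Pdk4 are among the 26, and that against E8.5 is among the 18. The counts of called members and of isoform pairs below also include Pdk4 where it was called. Of 58 uncalled member results, 23 were called in at least 1 alternative. Called members numbered 11 at E13.5 and 12 at P90 in the comparisons with E8.5, and 3 for P90 against E13.5. Quantile normalization gave 18 (4 higher, 14 lower) and 19 (4 higher, 15 lower) in the comparisons with E8.5, or 64.3% and 67.9% of members, against 21.5% and 30.2% of all genes, which also gained calls. Median log2 changes of the members were smaller under it. They were -0.68 at E13.5 and -0.57 at P90 against E8.5, where unscaled values gave -0.84 and -1.06. For P90 against E13.5 the median was 0.01, and -0.28 unscaled. The Actb 3' to 5' difference as a covariate gave 6 for P90 against E13.5 and 19 for P90 against E8.5 (14.8% and 32.6% of all genes). The Gapdh 3' to 5' difference as a covariate, added after seeing the data, gave 7 for P90 against E13.5 (16.3% of all genes), and 5 higher and 6 lower for E13.5 against E8.5 (22.0% of all genes). The replicate block gave 11 called members at E13.5 and 13 at P90 against E8.5 (15.6% and 23.1% of all genes). Between the later stages the block gave 3 (9.01% of all genes). Under it, Eno3 was no longer called at E13.5 (adjusted p = 0.0537), and Pkm was called at E13.5 (-1.66, adjusted p = 0.0322) and at P90 (-1.79, adjusted p = 0.0174), all against E8.5. Leaving out 1 array at a time gave 7 to 13 (E13.5 against E8.5), 2 to 7 (P90 against E13.5) and 9 to 18 (P90 against E8.5) called members, and 3 to 7 isoform pairs against 4 with all arrays. The share of all genes called also moved, over 9.86% to 20.6%, 4.96% to 13.1% and 15.0% to 28.6%, in the same order of comparisons. The count of 7 for E13.5 against E8.5 came without E8.5 replicate 2, E8.5 replicate 3 or E13.5 replicate 3, that of 7 for P90 against E13.5 without E13.5 replicate 2, and that of 7 isoform pairs without P90 replicate 1. Dropping from every stage its array with the largest Gapdh difference was also added after seeing the data. It gave 8 called members at E13.5 and 10 at P90 in the comparisons with E8.5, and 3 between the later stages. Of all genes, 11%, 15.7% and 6.34% were then called, in the same order, against 16.5%, 23.3% and 9.48% with all arrays. Without probe sets ending in _x_at or _s_at, Slc2a3 turned to 0.12 (adjusted p = 0.826) at E13.5 and 0.29 (adjusted p = 0.472) at P90, both against E8.5, because a dim probe set then stood for the gene. With the mean of all probe sets, the Pdk3 to Pdk1 ratio changed by -1.15 at P90 against E8.5 (adjusted p = 0.0107 by exact permutation), against 0.36 with the brightest. The cause of the other shifts was not tested. Median scaling, added after seeing the data, moved the median of all genes at P90 against E8.5 to -0.14 and gave 14 called members there (24.5% of all genes). Dim genes such as Pdk4 and Slc2a4 lie near the filter, and their changes are understated.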
